A study of Mus musculus with 5 samples.

Results

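The genes encoding the proteasome, its assembly factors and its activators were taken as every gene of the deposited count table whose symbol begins with Psm, a letter from a to g and a number. The rule found 40 of 10329 genes and used no measured value. They encode 7 alpha subunits of the core particle (Psma1 to Psma7), 5 of its constitutive beta subunits, 1 inducible beta subunit (Psmb10), 6 ATPases of the regulatory particle (Psmc1 to Psmc6), 11 of its non-ATPase subunits, 5 assembly factors (Psmd5, Psmd9, Psmd10, Psmg1, Psmg2) and 5 genes of alternative activators or of the inhibitor (Psme1 to Psme4, Psmf1). Their ribosome-protected mRNA fragments (footprints) were counted in slices of hippocampus and cortex from wild-type males of the C57BL/6N strain aged 28 to 35 days, in a study that also bred Fmr1 KO littermates. Slices of 400 µm had recovered for 3 to 4 h and were exposed to 20 µM homoharringtonine (HHT) for 0, 5, 10, 30 or 60 min, with 0.05% DMSO named as the vehicle. HHT holds newly initiated ribosomes near the start codon, and ribosomes further along the coding sequence finish and leave. All 5 libraries share genotype, sex, strain and age range, each is 1 pool of 10 slices from 2 to 3 mice, and no time point has a replicate. No library of slices in vehicle alone at the later times was analysed here, so time on HHT, time in vehicle and time since slicing cannot be told apart.

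The proteasome is the chief protease of the ubiquitin system. Its core is a barrel of stacked rings, with alpha subunits at both ends and beta subunits inside, and Psmb5, Psmb6 and Psmb7 carry the proteolytic sites. The regulatory particle binds ubiquitylated proteins, removes the ubiquitin, unfolds the substrate with its ring of ATPases and feeds it into the core. Immune signals replace the catalytic subunits by Psmb8, Psmb9 and Psmb10, which gives the immunoproteasome. The transcription factor Nfe2l1 raises the proteasome genes together through antioxidant response elements in their promoters when proteasome activity is short. In neurons the proteasome also takes part in turnover of synaptic proteins.

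Promoter sequence was searched because the genes are known to share transcriptional control. RefSeq promoters (GRCm38.p6) were at hand for 34 members, and the 250 bases before the transcript start were searched on both strands for the core of the antioxidant response element, TGACNNNGC. It was found for 5 members, Psmb5, Psmb6, Psmc6, Psmd12 and Psmd9 (14.7%), and for 11.5% of all 27025 genes with a promoter. An interferon gamma activated site (TTCNNNGAA) was found for Psmg1 (2.94%; all genes 8.13%). An interferon-stimulated response element (GAAANNGAAA) was found for Psmd4 and Psmd9 (5.88%; all genes 3.46%), and Psmd9 is thus counted for both motifs. The last 2 motifs can share bases where GAA belongs to both. A match is a string of letters and no shown binding site. Psmb10 and Psmd8 had the highest ratios of footprints at 60 min to 0 min among the members, and their windows held none of the motifs. Psmb6, which had a match, had the lowest ratio. A link between motifs and footprints was not tested. The windows below are those of Psmb5 and Psmd12, a core and a regulatory particle subunit with a match (capitals), and of Psmb10 and Psmd8. They lie at chr14:54617996-54618245 (minus strand), chr11:107479278-107479527 (plus), chr8:105938393-105938642 (minus) and chr7:29180674-29180923 (minus), each printed 5′ to 3′ along the gene's strand.
Psmb5: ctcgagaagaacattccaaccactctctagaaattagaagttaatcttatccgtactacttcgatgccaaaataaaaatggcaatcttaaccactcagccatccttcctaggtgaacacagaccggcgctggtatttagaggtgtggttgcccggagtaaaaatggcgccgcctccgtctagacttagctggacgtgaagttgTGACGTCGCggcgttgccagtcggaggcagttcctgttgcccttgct
Psmd12: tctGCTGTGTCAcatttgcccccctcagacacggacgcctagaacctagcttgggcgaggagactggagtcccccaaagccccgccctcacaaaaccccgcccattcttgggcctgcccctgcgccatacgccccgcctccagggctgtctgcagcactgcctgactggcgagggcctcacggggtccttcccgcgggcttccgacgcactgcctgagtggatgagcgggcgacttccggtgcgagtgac
Psmb10: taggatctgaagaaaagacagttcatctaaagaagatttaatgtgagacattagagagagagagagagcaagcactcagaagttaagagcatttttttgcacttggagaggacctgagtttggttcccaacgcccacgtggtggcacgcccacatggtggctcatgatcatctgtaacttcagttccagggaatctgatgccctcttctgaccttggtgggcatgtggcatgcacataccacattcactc
Psmd8: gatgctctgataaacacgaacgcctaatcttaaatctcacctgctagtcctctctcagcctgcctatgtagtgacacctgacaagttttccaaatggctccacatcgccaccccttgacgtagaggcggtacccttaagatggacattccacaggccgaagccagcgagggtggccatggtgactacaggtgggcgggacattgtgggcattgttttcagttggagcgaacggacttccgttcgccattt
The match of Psmb5 spans -47 to -39 from the transcript start on the gene's strand. That of Psmd12 spans -247 to -239 and reads on the opposite strand.

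The libraries held 7155147, 2787749, 2022152, 1504748 and 1346175 counts in time order, with a median count per gene of 208 at 0 min and 38 at 60 min. The authors' deposited level per gene, rpk, is the count divided by the coding sequence less 600 nt (expressed in kb) and then by a library factor (1, 0.965, 0.828, 0.882 and 0.973). Coding sequences were counted without their ends, and the sources used here do not say how the 600 nt were split or where the factors come from. Factors computed here from mitochondrially encoded genes were 0.986, 0.824, 0.871 and 0.974 at 5, 10, 30 and 60 min. They lay within 2.19% of the deposited factors. The alpha and beta subunits have short coding sequences, 705 to 834 nt, so their counts rest on stretches of 105 to 234 nt. Neuronal markers had the largest sum on the rpk scale, 93791 at 0 min, over the 5 of 6 listed genes in the count table (Snap25 is listed at 0 TPM in all 5 libraries). Astrocyte markers (5 of 5) summed to 39564, oligodendrocyte markers (4 of 5) to 59150, microglial markers (7 of 7) to 6104, endothelial markers (3 of 4) to 218 and blood-derived immune markers (3 of 6) to 1484. Of the neuronal sum 42008 was Map2, counted on 804 nt. Map2 had 35.2 TPM per 1000 rpk, where Syt1 and Camk2a had 103. In deposited TPM at 0 min the oligodendrocyte sum was larger than the neuronal one, 14315 against 6674, so the order depends on the scale. In such tissue fewer cells of a type and fewer footprints per cell cannot be told apart.

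Before HHT the core particle genes carried the densest footprints among the members. Their median rpk was 3292, at the 95.8th percentile of all genes, whose median was 221. The 17 regulatory particle genes had a median of 1762 (91.5th percentile), and all 40 members 1757 (91.4th percentile). Within each ring or particle the levels lay close together. The 7 alpha genes ranged from 1688 (Psma1) to 4000 (Psma6), 2.37-fold, with a coefficient of variation of 25.7%. The 5 constitutive beta genes ranged from 3274 (Psmb6) to 5923 (Psmb7), 1.81-fold, coefficient of variation 24.4%. The 6 ATPase genes ranged from 1178 (Psmc4) to 2568 (Psmc6), 2.18-fold, coefficient of variation 24.2%. The 11 non-ATPase genes ranged from 946 (Psmd1) to 2593 (Psmd8), 2.74-fold, coefficient of variation 27.3%. The subunits of these complexes are present in equal copies in the assembled particle. Taken whole, the core genes had a coefficient of variation of 40.8% (30.7% without Psmb10), the regulatory particle genes 25.6% and all 40 members 66.1%. For comparison, also over whole complexes, the 7 measured genes of the CCT chaperonin, another equimolar complex, had a median rpk of 1977 and a coefficient of variation of 16.5%. The 9 genes of the vacuolar proton pump, whose subunits differ in copy number and in paralogs, had 4875 and 77.4%. These are levels in 1 library, so the spread between samples, which would separate neighbours in each order, is unknown.

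By group median the assembly factors and the activator and inhibitor genes were read at lower density than the 2 constitutive particles, though Psme3, Psme1 and Psmd9 were denser than Psmd1. The inducible Psmb10 had an rpk of 459 at 0 min from 102 counts, against 5923 from 1386 counts for Psmb7, the constitutive subunit it replaces. The assembly factors had a median rpk of 315, from 221 (Psmg2, a chaperone of the alpha ring) to 1043 (Psmd9, a chaperone of the ATPase ring). Psmd5, another chaperone of the ATPases, had 738, Psmg1, the partner of Psmg2, 315, and Psmd10 (gankyrin) 240. The activator and inhibitor genes had a median of 806. Psme3, the nuclear activator, had 1139. Psme1 and Psme2, which form 1 joint ring in cells, had 1080 and 192, a gap that rests on 162 and 23 counts. Psmf1, an inhibitor of the core, had 806 and Psme4, the large nuclear activator, 84.5.

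**Figure D1:**
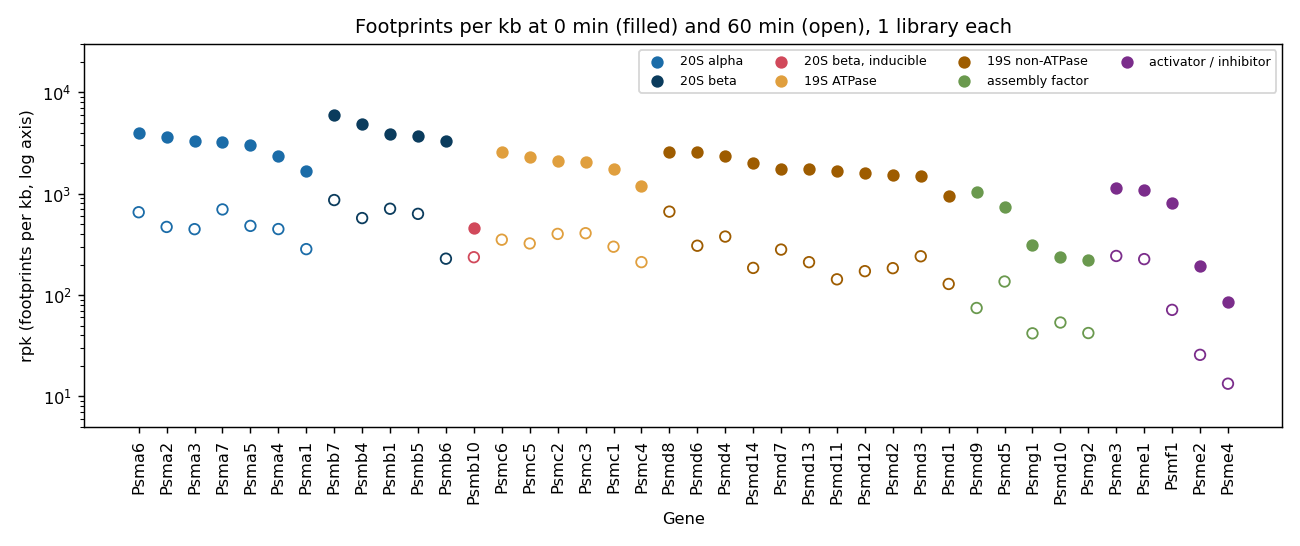
Level of each of the 40 genes (rpk, footprints per kilobase of counted coding sequence after the library factor, log axis) in the 0 min library (filled) and the 60 min library (open), 1 library each, grouped by role and ordered by the 0 min level. The core and regulatory particle genes lie together between 946 and 5923 at 0 min apart from Psmb10 at 459, and each open circle lies below its filled one.

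After HHT the footprints of the proteasome genes dropped to a small share of their starting level, and most of that drop lay before 5 min. The median ratio of rpk to 0 min over the 40 genes was 0.183, 0.176, 0.188 and 0.160 at the 4 treated times. Over all genes it was 0.333, 0.268, 0.223 and 0.181, so the members lay below the typical gene by more at 5 min than at 60 min. Along log2(minutes + 1) over the 5 libraries on the scale of the deposited factors, 37 of the 38 members tested fell (adjusted p under 0.05 by Benjamini-Hochberg, edgeR quasi-likelihood test), where 94.2% of all 9444 tested genes fell. The members' median slope was -0.45 log2 units per unit, that of all genes -0.41. No member rose, at an unadjusted p under 0.05 or with DESeq2 either, where 0% of all genes did. Psmb10 missed the threshold (slope -0.17, SE 0.0868, adjusted p = 0.0695). Psmd10 and Psme2 had too few counts to be tested. With minutes in place of their logarithm 0 members passed. Leaving out the 0 min library left 5 (Psmd1, Psmd2, Psmd11, Psmd12, Psme4), and leaving out that of 5 min gave all 38, Psmb10 included. Without the 0 min library Psmd8 turned from fallen (slope -0.32, adjusted p = 0.0102) to risen (slope 0.31, SE 0.0882, adjusted p = 0.00328, edgeR).

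The alpha subunits had similar courses. Their median ratios were 0.159, 0.176, 0.191 and 0.164 in time order. The 7 genes spanned 0.141 to 0.238 at 5 min and 0.131 to 0.216 at 60 min. Psma6 had rpk values of 4000, 617, 651, 764 and 656 in time order, from 564, 84, 76, 95 and 90 counts. Psma1, the least dense of them, had 1688, 237, 359, 337 and 284, from 324, 44, 57, 57 and 53 counts. Both lost most of their footprints within 5 min. From 5 min on, the ratio of Psma1 ranged from 0.141 to 0.212 and that of Psma6 from 0.154 to 0.191, with overlapping counting intervals. Psma7 had the highest remainder of the group, with 475, 109, 95, 94 and 100 counts and a ratio of 0.216 at 60 min (exact 95% interval from counting error alone 0.173 to 0.269).

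The catalytic beta subunits spread more widely at 60 min. Psmb5, the chymotrypsin-like subunit, had rpk values of 3728, 685, 650, 721 and 632 in time order, a ratio of 0.170 at 60 min (0.139 to 0.206). Psmb7, the trypsin-like subunit, had 5923, 872, 784, 873 and 865, a ratio of 0.146 (0.125 to 0.170). Psmb6, the caspase-like subunit, had 3274, 407, 279, 330 and 228, from 383, 46, 27, 34 and 26 counts. Its ratio at 60 min, 0.0697 (0.045 to 0.104), was the lowest of the 40 members, and its interval did not reach those of Psmb5 and Psmb7. Psmb1 and Psmb4, which carry no proteolytic site, had ratios of 0.182 and 0.118 at 60 min. RefSeq names 6 pseudogenes of core genes, of Psma5, Psmb5, Psmb6 and Psmb7, and no source used here says how reads were split between near-identical copies, so these counts are uncertain to that extent.

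Psmb10, the inducible counterpart of Psmb7 (transcript NM_013640, chromosome 8, 105935728 to 105938392 in GRCm38), kept the largest share of its footprints among the 40 members at 60 min. It had 102, 53, 51, 40 and 51 counts in time order and rpk values of 459, 247, 277, 204 and 236. Its ratios were 0.538, 0.604, 0.445 and 0.514, with an interval of 0.360 to 0.726 at 60 min. At 60 min the interval lay wholly above the median ratio of 1759 genes with coding sequences of 603 to below 1000 nt, 0.175. The rpk of Psmb7 was 12.9 times that of Psmb10 at 0 min, and 3.66 times at 60 min. Over the same libraries the microglial markers went from a summed rpk of 6104 to 282, with a median ratio of 0.046, and none of the 7 was at 0. The median ratios at 60 min were 0.0539 for oligodendrocyte, 0.0856 for blood-derived immune, 0.109 for endothelial, 0.117 for astrocyte and 0.223 for neuronal markers. Psmb10 was above each of these medians, and their part in its value was not tested. The other inducible subunits were listed only in the table of rounded TPM, at 4, 0, 4, 0 and 0 (Psmb8) and 7, 0, 15, 0 and 18 (Psmb9) in time order.

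Among the regulatory particle ATPases the ratios were even and somewhat higher. Their medians were 0.204, 0.199, 0.200 and 0.175 at 5, 10, 30 and 60 min, and the 6 genes spanned 0.137 to 0.199 at 60 min. Psmc2 had 1734, 318, 258, 389 and 323 counts in time order. Psmc6, the densest at 0 min, had 1464, 271, 241, 245 and 195, and Psmc4, the least dense, 774, 172, 139, 140 and 135. All 3 had their widest drop before 5 min; afterwards the ratio of Psmc2 went from 0.180 (0.157 to 0.205) at 10 min to 0.254 (0.227 to 0.284) at 30 min, and that of Psmc6 from 0.190 (0.165 to 0.217) at 30 min to 0.137 (0.117 to 0.159) at 60 min.

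The non-ATPase subunits differed more among themselves, in level and in course. Their median ratios were 0.182, 0.165, 0.167 and 0.122, and the 11 genes spanned 0.0846 (Psmd11) to 0.256 (Psmd8) at 60 min. Psmd1 and Psmd2, the large scaffold subunits, have coding sequences of 2862 and 2727 nt and ran down in steps. Psmd1 had rpk values of 946, 453, 233, 157 and 129 in time order, ratios of 0.480, 0.246, 0.167 and 0.136. Psmd2 had 1522, 539, 270, 229 and 184, ratios of 0.354, 0.178, 0.151 and 0.121. At 5 min both stood above the 15 shorter genes of the particle, whose ratios spanned 0.130 to 0.249, and at 60 min both lay within their range of 0.0846 to 0.256.

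Psmd8, a subunit of the lid (transcript NM_026545, chromosome 7, 29174187 to 29180673), ran the other way after its initial drop. It had 1198, 150, 168, 267 and 299 counts in time order although the library totals declined throughout. Its rpk values were 2593, 336, 439, 656 and 665, ratios of 0.130 (0.109 to 0.154), 0.169, 0.253 and 0.256 (0.225 to 0.291). It went from the lowest ratio of the particle at 5 min to the highest at 60 min, and these intervals do not overlap. Psmd11, a lid scaffold subunit, had 1129, 152, 150, 122 and 93 counts and ratios of 0.139, 0.160, 0.123 and 0.0846 (0.0678 to 0.105). Psmd14, the deubiquitinase of the lid, had 676, 109, 88, 102 and 60 counts and a ratio of 0.0912 at 60 min (0.0688 to 0.119).

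Assembly factors were thinly covered. Psmd5 was the best measured, with 675, 151, 123, 139 and 121 counts and a ratio of 0.184 at 60 min. Psmg1 had 85, 11, 12, 15 and 11 counts and Psmg2 43, 14, 14, 8 and 8. Psmd10 had 23, 4, 6, 4 and 5. Psmd9 had 72, 4, 4, 8 and 5 counts, on a counted stretch of 69 nt, and ratios of 0.0576 (0.0153 to 0.154) at 5 min and 0.0714 (0.0225 to 0.174) at 60 min. At 60 min the counting intervals of all 5 but Psmd9 included the ratio of the typical gene.

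The activator and inhibitor genes differed in coding length and in course. Psme4 has 5532 nt and had rpk values of 84.5, 50.2, 50.2, 12.6 and 13.3 in time order, from 417, 239, 205, 55 and 64 counts. Its ratio of 0.594 held at 5 and 10 min and then was 0.150 at 30 min and 0.158 at 60 min. The deposited TPM of Psme4, given below, took another course. Psme3 had 188, 35, 28, 35 and 39 counts, Psme1 162, 36, 39, 35 and 33, and both stood at a ratio of about the typical gene at 60 min (0.213 and 0.209). Psme2 had 23, 3, 4, 1 and 3 counts, too few to place. Psmf1 had 174, 19, 19, 19 and 15 counts, with ratios from 0.113 at 5 min to 0.0886 (0.0485 to 0.150) at 60 min.

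**Figure D2:**
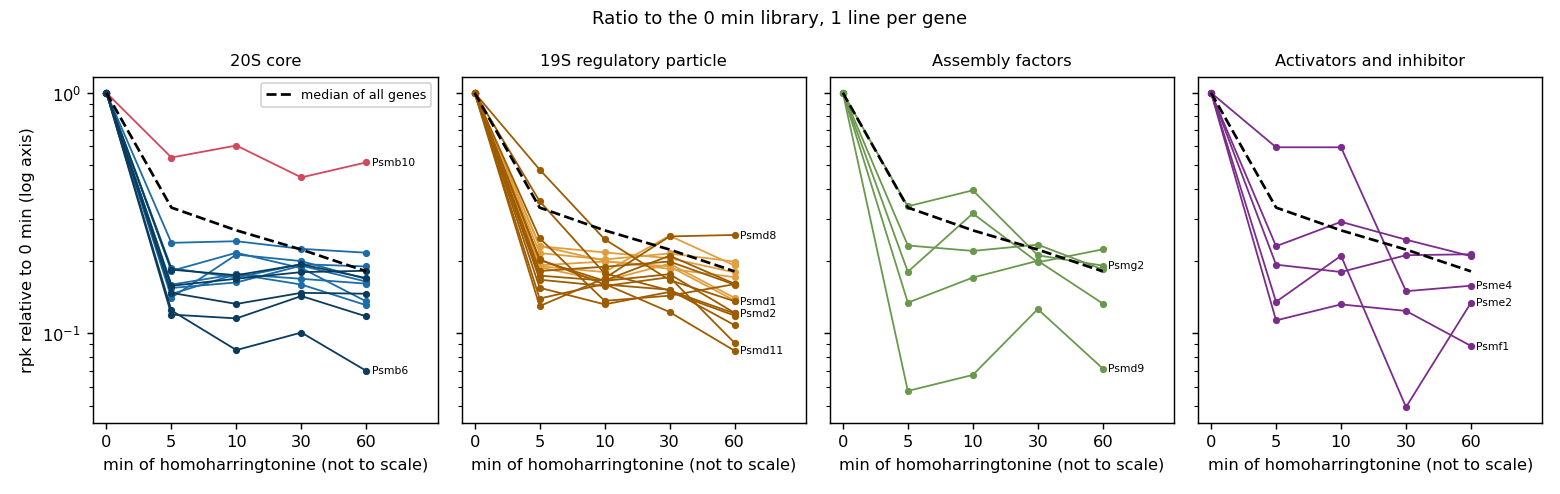
Ratio of rpk to the 0 min library (log axis) against time on HHT (time points evenly spaced, not to scale), 1 line per gene in 4 panels by role, colours as in the plot of levels, with the median of all genes dashed. Most lines drop steeply by 5 min and change less after it, Psmb10 stays at 0.445 or above, Psmd1, Psmd2 and Psme4 step down later, and Psmd8 goes from 0.130 to 0.256.

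Coding length sets how long ribosomes take to run off, so the members were also set against genes of like length. The median ratio at 5 min was 0.203 for genes of 603 to below 1000 nt, 0.249 for 1000 to below 1500 nt, 0.425 for 2000 to below 3000 nt and 0.604 for 4000 to below 6000 nt. At 60 min these medians were 0.175, 0.177, 0.180 and 0.200. Of the 40 members 35, 32, 32 and 27 lay below the median of their class at the 4 treated times. The counting interval lay wholly below that median for 22, 17, 13 and 15 members and wholly above it for 2, 1, 3 and 2. Such intervals narrow with depth, and the matching shares of all genes were not computed, so these counts do not set the members apart. Psmd1, at 0.480 against 0.425, was above its class at 5 min, and Psmd2, at 0.354, was below it. Psme4, at 0.594 against 0.604, was close to its class at 5 min, and at 30 min, at 0.150 (0.111 to 0.199) against 0.252, its interval was wholly below. With 1 library per time, these are descriptions without a test.

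**Figure D3:**
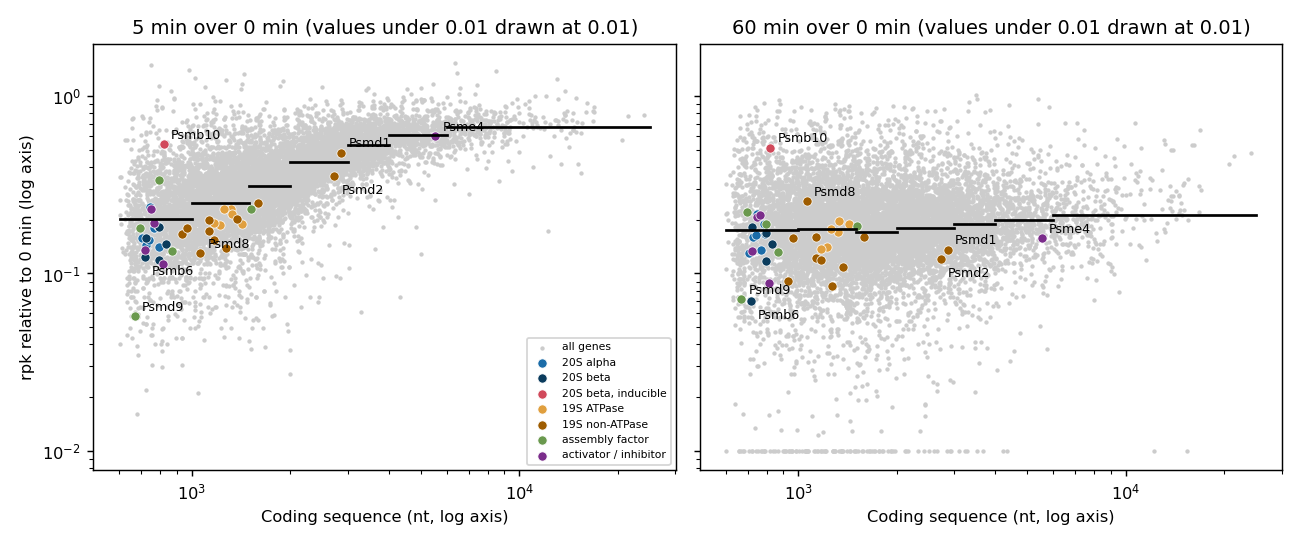
Ratio of rpk to 0 min (log axis) against coding length (nt, log axis) at 5 min (left) and 60 min (right) for all 10329 genes (grey) and the 40 members (coloured by role), with the median of each length class as a black bar and values under 0.01 drawn at 0.01. At 5 min 35 members lie below the bar of their class and at 60 min 27 do; Psmb10 lies above it in both panels.

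Set against the typical gene by TMM scaling, the members were low at the first time and nearer to typical at the last. Among members whose counts in both libraries summed to 100 or more, the median log2 fold against 0 min was -0.82, -0.59, -0.26 and -0.19 in time order. Over all such genes it was 0.07, 0.02, -0.02 and -0.03. Folds below 0 were found for 31 of 35 members at 5 min (46.5% of all such genes), 32 of 35 at 10 min (48.8%), 31 of 36 at 30 min (51.7%) and 26 of 35 at 60 min (51.8%). As a share of all footprints the 40 members made up 0.455% at 0 min (Clopper-Pearson 95% interval 0.450 to 0.460%), then 0.254%, 0.245% and 0.345%, and 0.356% (0.346 to 0.366%) at 60 min. The share at 60 min was therefore still below that at 0 min by more than counting error.

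Of the 40 members at 60 min, 16 had a ratio whose counting interval lay wholly below the median ratio of all genes and 2 had one wholly above it. How many of all genes have such an interval was not computed, and deeper genes have narrower ones. The 3 highest and the 3 lowest members with enough counts on the relative scale follow. Psmb10 had a log2 fold of 1.49 (0.97 to 1.99), Psmd8 0.49 (0.30 to 0.67) and Psma7 0.24 (-0.09 to 0.55). At the low end were Psmb6 with -1.39 (-2.02 to -0.82), Psmd11 with -1.11 (-1.43 to -0.81) and Psmf1 with -1.05 (-1.92 to -0.29). The interval of Psma7 included 0 and those of the other 5 did not. On the deposited TPM, Psmd11 was at -2.08 and Psmd8 at 0.21, where all genes had a median of -0.15.

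**Figure D4:**
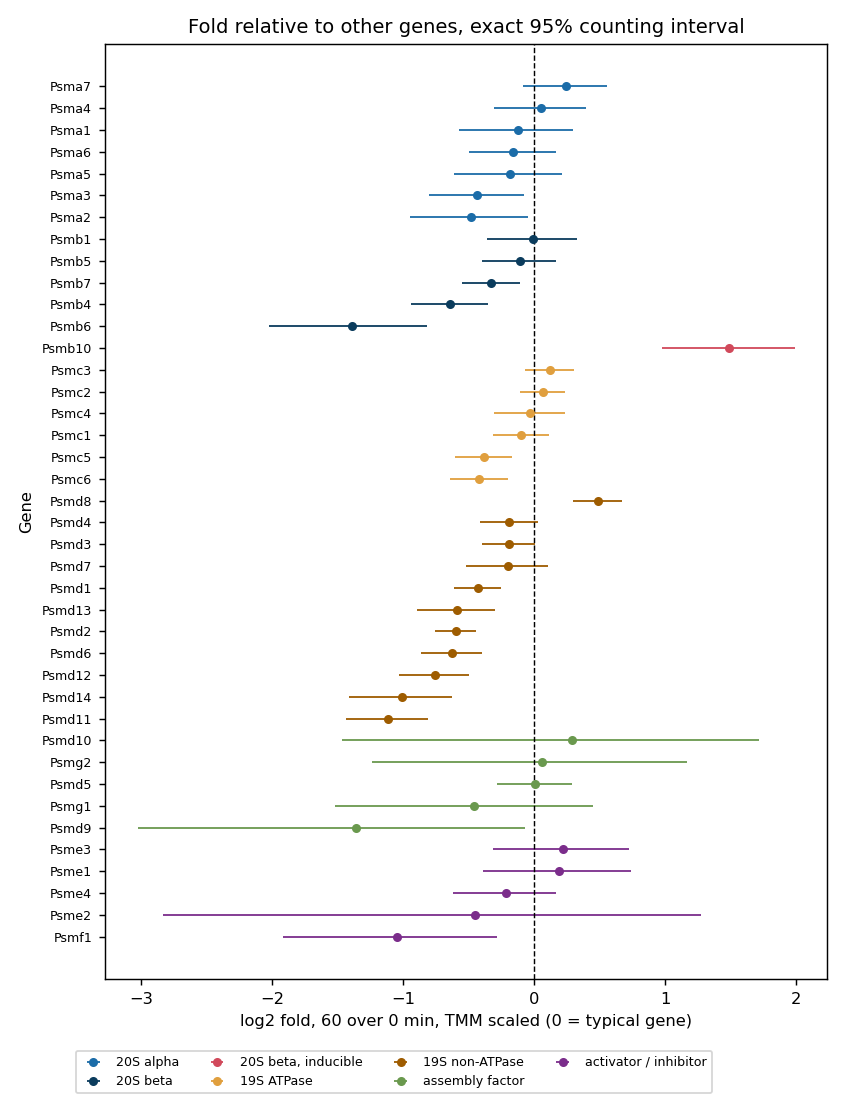
Log2 fold of each of the 40 genes at 60 min over 0 min, scaled by TMM so that 0 is the typical gene, 1 library each; bars are exact 95% intervals from counting error alone and colours give the role. Psmb10 (1.49) and Psmd8 (0.49) lie to the right of 0 with their whole interval, and Psmb6 (-1.39) and Psmd11 (-1.11) to the left.

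On the TMM-scaled slope over 5 libraries none of the 38 members tested was called lower or higher (edgeR quasi-likelihood test, Benjamini-Hochberg), where 0.0106% of all genes were called lower and 0% higher. At an unadjusted p under 0.05 there were 2 lower members, Psmb6 (slope -0.24, SE 0.0768, adjusted p = 0.252) and Psmd11 (-0.16, SE 0.0676, adjusted p = 0.364). There was 1 higher member, Psmb10 (0.23, SE 0.0670, adjusted p = 0.203). Of all genes 5.48% were lower and 6.75% higher at that unadjusted threshold, so these 2 and 1 of 38 members do not set them apart. DESeq2 and limma on TPM called 0 members in either direction.

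Within the 4 treated libraries the relative course of the proteasome genes pointed upward. Of 37 members tested 33 had a positive TMM-scaled slope over 5 to 60 min, as had 52.8% of all genes, with a median of 0.18 against 0.02 over all 8631 genes tested. The rise passed the test for 8 members, Psma4, Psma6, Psmb1, Psmb4, Psmb7, Psmc2, Psmd4 and Psmd8 (edgeR quasi-likelihood test, Benjamini-Hochberg), where 5.1% of all genes rose. Psmd8 had a slope of 0.56 (SE 0.0815, adjusted p = 0.00369), Psmb1 0.32 (SE 0.0823, adjusted p = 0.0248) and Psma6 0.30 (SE 0.0828, adjusted p = 0.0293), in edgeR. Psme4 fell (-0.44, SE 0.113, adjusted p = 0.0240, edgeR), where 10.1% of all genes fell, and its call ended without the 30 min or the 60 min library. By role, 5 of 13 core members rose (median slope 0.27), as did 3 of 17 regulatory particle members (0.14), 0 of 3 tested assembly factors and 0 of 4 tested activators.

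Short genes as a whole rose more often on this scale. In the class of 603 to below 1000 nt 18.1% of 1196 tested genes rose (median slope 0.19), and 5 of 20 members did (median 0.23). In the class of 1000 to below 1500 nt 7.30% of 2232 genes rose (median 0.13), and 3 of 12 members did (median 0.17). Leaving out a library changed the count of risen members to 2 (5 min), 15 (10 min), 1 (30 min) and 1 (60 min). They were 2 with DESeq2's Wald test, 1 on the scale of the deposited factors and 0 with limma on TPM. Psmd8 rose in all of these but the last. The treated-library slopes have 2 residual degrees of freedom.

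At 5 min the regulatory particle genes had the higher median fold, and at 60 min the lower one, by a gap whose size depended on which genes were included. The median log2 fold of the 17 regulatory particle genes minus that of the 13 core genes was 0.27 at 5 min and -0.22 at 60 min. Counting half-widths of 0.10 and 0.11 hold for the summed counts of the 2 groups and do not measure the error of these medians. The core median at 60 min was that of Psma6, whose own counting interval was -0.50 to 0.16. Restricted to coding sequences under 1500 nt, which leaves out Psmd1, Psmd2 and Psmd3, the differences were 0.25 and -0.13. Without Psmb10 they were 0.29 and -0.21. Without Psmd1 and Psmd2, an alternative added after seeing the data, they were 0.26 and -0.041. At 60 min the medians were -0.16 for the core, -0.06 for the ATPases and -0.59 for the non-ATPase subunits. The regulatory particle genes are longer, 933 to 2862 nt. The medians of all genes of 1000 to below 1500 nt and of 603 to below 1000 nt differed by 0.30 at 5 min and 0.02 at 60 min, in the same order as the particles at 5 min. Neither difference has a replicate check.

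Among the genes that supply or assist the proteasome, 43 of 61 listed symbols, old names included, were in the count table, and all 43 fell on the scale of the deposited factors (edgeR quasi-likelihood test, Benjamini-Hochberg), where 94.2% of all genes did. None was called on the TMM-scaled slope (unadjusted p under 0.05 for 1 lower gene, Nfe2l2, and 0 higher). Usp14, a deubiquitinase bound to the regulatory particle, had 3868, 767, 456, 553 and 440 counts in time order and a ratio of 0.117 at 60 min. Adrm1, a ubiquitin receptor, had 655, 133, 78, 80 and 84 counts and a ratio of 0.132. Nfe2l1, the activator of proteasome genes, had 1392, 579, 506, 432 and 455 counts and a ratio of 0.336 (0.301 to 0.374) at 60 min, above that of every member but Psmb10.

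Over the treated libraries 3 of 41 tested genes of that list rose and 7 fell, in edgeR, where 5.1% of all genes rose and 10.1% fell. Ubb, a polyubiquitin gene, rose with a slope of 0.48 (SE 0.0798, adjusted p = 0.00590, edgeR) and had 15467, 2203, 1794, 2663 and 3579 counts. Uchl5, another deubiquitinase of the regulatory particle, rose with 0.37 (SE 0.0966, adjusted p = 0.0249, edgeR). Stub1, a chaperone-linked ubiquitin ligase, rose with 0.26 (SE 0.0813, adjusted p = 0.0486, edgeR). The 5 falling genes with the smallest p were the ubiquitin ligases Ubr1 (-0.48), Ube4b (-0.30), Huwe1 (-0.42) and Ube4a (-0.27), and AI314180 (-0.35), the proteasome adaptor also known as Ecpas. All 5 have coding sequences of 3087 to 13137 nt, while the 3 rising genes have 915 to 987 nt.

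Against other complexes the proteasome's course was not set apart by a test. The CCT subunits had median ratios of 0.259, 0.200, 0.215 and 0.179 at 5, 10, 30 and 60 min and the proton pump subunits 0.197, 0.180, 0.186 and 0.153. On the deposited scale all 7 and all 9 fell (edgeR, Benjamini-Hochberg), where 94.2% of all genes did. Over the treated libraries 0 of 7 CCT genes and 1 of 9 pump genes rose, against 8 of 37 proteasome genes and 5.1% of all genes, and the difference between these shares was not tested. The CCT genes have coding sequences of 1608 to 1671 nt. Of all genes of 1500 to below 2000 nt 2.24% rose, and 18.1% of those of 603 to below 1000 nt.

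The deposited TPM table gave the same ranking of particles with other spacing. Its medians at 0 min were 444 for the core and 207 for the regulatory particle. The ratio of TPM to rpk depended on coding length, with a median of 112 TPM per 1000 rpk for genes of 603 to below 1000 nt and 102 to 105 for longer classes, so levels of short and long members are set side by side with that error. Psme4 stood at 934 TPM per 1000 rpk and Psmd11 at 185, beyond the 10th to 90th percentiles of their classes (97.5 to 165 and 100 to 127). The TPM of Psmd11 in time order was 312, 82, 141, 310 and 73, high at 30 min where its rpk was not. That of Psme4 was 79, 43, 49, 23 and 82. TPM is scaled within each library, so it is set beside the TMM-scaled log2 folds of Psme4. These were 0.84, 1.16, -0.60 and -0.22 at the treated times, above 0 at 5 and 10 min where its TPM was below that at 0 min. The cause was not tested, and the 2 tables differ for these genes.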

How the data were processed

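Footprints were measured in 5 wild-type slice libraries, 1 per time. The submitters' processing notes list TopHat2 2.0.9, Bowtie2 2.1.0, SAMtools 0.0.19, Trimmomatic 0.32, cutadapt 1.7.1 and mm10, with no roles, and RSEM settings were not stated. The authors deposited expected counts of reads on coding sequences without their ends (already whole; rounding changed 0 values). Per the file headers and values, the authors divided these counts by length and library factor to make the signal rpk. The authors divided rpk at each time by rpk at 0 min to make the deposited ratio. The authors rounded a TPM table to whole numbers, treated here as a score, and deposited rate columns, fractions lost between times and likewise a score, which were not used. Depth was 1346175 to 7155147 counts per library, so counting error was widest at 60 min; reads carried no stated molecular identifiers, and intervals cover counting error only.

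Slopes on log2(minutes + 1) were fitted with edgeR 4.0.16 (quasi-likelihood, R 4.3.3) on counts of all genes with a mean of at least 10. Scaling was by the deposited factors or TMM, with Benjamini-Hochberg adjustment over all genes tested. The 5 libraries leave 3 residual degrees of freedom, which hold library scatter and curvature together. The p-values rest on that mixed residual and do not measure the spread between pools of the same time, of which there was 1. The fit was run on simulated counts with straight slopes and a fixed dispersion. That setting lacks the steep drop before 5 min, so it does not check the p-values for such a course. Folds of single libraries carry exact 95% conditional binomial intervals (scipy 1.17.1) and no p-value; medians of log2 folds used a prior count of 2. Coordinates come from RefSeq GRCm38.p6, where all 40 members matched by transcript. Alternatives were DESeq2 1.42.0, limma 3.58.1 on log2(TPM + 1), other filters, time axis and scaling, and each library left out.

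Named genes were the catalytic beta subunits and their counterparts, the highest and lowest level of each role, the 3 highest and 3 lowest folds at 60 min among members whose 2 counts summed to 100 or more, coding sequences of at least 2000 nt, members called on a TMM-scaled slope (at most 5 per direction, the rest listed), assembly factors, activators, and of the accessory list the called genes (at most 5 per direction), Usp14, Uchl5, Adrm1 and Nfe2l1. Psmd14, outside that rule, and the promoters shown were chosen after values were seen. Members and lists were chosen with earlier results of these data known.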

Additional observations from a re-analysis of the deposited data

Results flagged for a closer look

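Several genes whose symbols match the naming rule are absent from the count table but have TPM values above their 0 min value in a treated library. Psmb9, an inducible core subunit, was at 7 TPM at 0 min and reached 18 TPM at 60 min, with 0 at 5 and 30 min. Psma8, a testis form of an alpha subunit, was at 1 TPM at 0 min and reached 8 TPM at 60 min. Psmb11, the thymus subunit, was at 0 TPM at 0 min and reached 3 TPM at 30 min. Psmc3ip, which shares the symbol pattern but encodes a recombination protein, was at 18 TPM at 0 min and reached 47 TPM at 60 min, with 0 at the times between. Psmb2 and Psmb3, constitutive core subunits, and Psme2b were listed at 0 TPM in all 5 libraries. As constitutive subunits are made in all cells, a listing at 0 here need not mean that the gene was not translated. These tables give no counts for these genes, so no fold or interval was computed.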

How the results depend on the processing

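No paired analysis was possible because each time point has 1 library. On the deposited scale the count of 37 fallen members was 0 with minutes as the time axis and ranged from 5 to 38 over libraries left out; risen members ranged from 0 to 1. On the TMM-scaled slope (0 and 0), leaving out libraries gave 0 to 1 lower and 0 to 8 higher, the upper ends without the 0 min library. On the treated-library slope, the 1 lower member became 0 with a mean count of at least 50, 2 with DESeq2 size factors, 0 with limma on TPM, 5 with the deposited factors (an alternative chosen after seeing the data) and 0 to 3 over libraries left out. The 8 higher members became 2 with minutes, 2 with DESeq2's Wald test, 0 with limma on TPM, 1 with the deposited factors and 1 to 15 over libraries left out. The median log2 fold of members at 60 min was -0.34 on TPM + 1, against -0.15 for all genes on that scale. The regulatory particle minus the core at 60 min was -0.041 without Psmd1 and Psmd2. The cause of these changes was not tested beyond the fewer libraries or genes. The other 64 planned or added checks of these summary results, and 31 of 33 checks of single members, were classed as unchanged. For counts of called members this meant an equal or similar number called, and many of these checks compared 0 with 0, which shows little. For medians and single folds it meant a value within error. For the group medians that error was the counting error of summed counts, which is not the error of a median. Without the 0 min library 12 of the 37 fallen members had a positive slope on the deposited scale, and Psmd8 passed the test there in that direction. On the treated-library slope Psma4 and Psme4 changed sign with limma on TPM, where neither passed. Short coding sequences rest on few counted bases, and 1 library per time limits every comparison.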
